A study of Rattus norvegicus with 12 samples.

Results

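The major histocompatibility complex (MHC) class II genes of the rat colon and the neighbouring butyrophilin-like gene Btnl8 were examined on 12 whole-genome arrays. All non-control probes named RT1-Ba, RT1-Bb, RT1-Da, RT1-Db1, RT1-DMa, RT1-DMb, Cd74, Ciita or Btnl8 in the array files were taken, which gave 12 probes among 30367, for 9 of the 26514 gene names on the array. RT1-Bb, RT1-Db1 and Btnl8 had a pair of probes each and the other genes had 1. The genes were chosen with their signals in these arrays already known, and the distal RT1-Bb probe and Btnl8 were singled out for those signals. The values of these probes are therefore a description, and no p is printed for them. They stayed in the fit over all probes. Where a count below includes them, their call was fixed by this choice and is no test.

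All animals were male Wistar rats in which colorectal distension (CRD) was performed, and the colon was collected at day 60. Group C rats (C1 to C4) stayed with the dam and received placebo (saline) by gavage from day 3 to day 60. Group M rats (M5 to M8) underwent neonatal maternal separation (NMS), a model of visceral hypersensitivity in which pups were parted from the dam for 180 min daily from day 2 to day 14, and received the same placebo. Group D rats (D9 to D12) underwent the same NMS and were given VSL#3, a mixture of live probiotic bacteria, from day 3 to day 60, at a dose that the labels and the methods give differently. The methods name only D9 to D11 for Group D, so D12 was left out of the group comparisons and its values are shown beside the others. The litters of the rats are not given in the sources used here.

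Class II molecules are pairs of an alpha and a beta chain that present peptides to CD4+ T cells. In the rat the B and D pairs (RT1-Ba with RT1-Bb, RT1-Da with RT1-Db1) are the classical presenting molecules, the invariant chain Cd74 guides them to endosomes, RT1-DMa and RT1-DMb form the peptide exchanger, and Ciita is the transactivator that switches the set on. B cells, dendritic cells and macrophages carry most of these products, the classical B and D genes are among the most variable genes of a population, and the butyrophilin-like proteins of the gut epithelium are best known as partners of intraepithelial T cells.

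The pairs of probes of RT1-Bb and Btnl8 and the RT1-Ba probe are shown because their signals parted within a gene. They are 60 bases long and lie on chromosome 20 of the rat build rn4, as the array files give it. Where no reading frame of the probe was free of stop codons, its first 30 bases are printed.

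RT1-Bb A_64_P043911 (chr20:4732187-4732246, minus strand): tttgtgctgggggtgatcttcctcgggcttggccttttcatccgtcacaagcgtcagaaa
RT1-Bb A_44_P552452 (chr20:4730533-4730583, minus strand): cagctgtgacagttgtgaaataccctagct
RT1-Ba A_44_P128248 (chr20:4700973-4701032, plus strand): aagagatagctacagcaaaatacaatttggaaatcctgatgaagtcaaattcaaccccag
Btnl8 A_64_P351512 (chr20:4405380-4405439, plus strand): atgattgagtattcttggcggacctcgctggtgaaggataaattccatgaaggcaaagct
Btnl8 A_64_P076460 (chr20:4415069-4415128, plus strand): ctactttctggtatgtaaaattgtctcaat

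The first RT1-Bb probe starts at base 761 of its transcript and the second, called the distal probe here, at base 1199. The interval that the files give for the distal probe spans 51 bases of rn4, against 60 for each of the other 11 probes. The Btnl8 probes start at base 270 and, for the distal one, at base 1873 of the transcript, and the RT1-Ba probe starts at base 324.

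The arrays were alike in overall quality. Between 75.48% and 77.47% of spots were well above background, and no spot was saturated. The median coefficient of variation between the spots of a probe was 3.21% to 5.84%. Groups C and M shared 1 scan identifier and Group D had another, so the scan and VSL#3 cannot be told apart in any comparison with Group D. The 6 smooth muscle and 9 epithelial markers examined were well above background on all 12 arrays. In such whole tissue, fewer cells of a type and less RNA per cell cannot be told apart.

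The distal RT1-Bb probe was all-or-none between rats. Signals are given as log2 relative to the 75th percentile of the array, so that 0 is that percentile and a step of 1 is a 2-fold change. In Group C the distal RT1-Bb probe gave -8.39, -8.78, -8.89 and -7.99 in C1 to C4, none of them well above background. In Group M it gave 3.47, 1.66, 2.84 and 4.02 in M5 to M8. Every Group M rat thus lay far above every Group C rat. In Group D it gave -6.11 in D9, 1.89 in D10, 1.93 in D11 and -8.20 in D12, so that D10 and D11 lay within the range of Group M, D12 was not well above background, like Group C, and D9, although well above background, was close to the low rats. The measured means were 3 in Group M and -8.52 in Group C. In the lower group, signals not well above background were raised to the lowest signal of any probe well above background on that array, unless measured higher. The higher group kept its measured values, also for rats not well above background. Counted from that level, Group M exceeded Group C 1750-fold. Group D exceeded it 129-fold with D9 to D11 and 35.5-fold with D12 included. Both Group D values come from means over rats that were either high or low, and describe no single rat. Here and below, a bound or an "at least" counts from that level and is approximate. A probe could lie above it and not be well above background, as RT1-Ba in M6 did (-6.89 against -7.55).

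**Figure D1:**
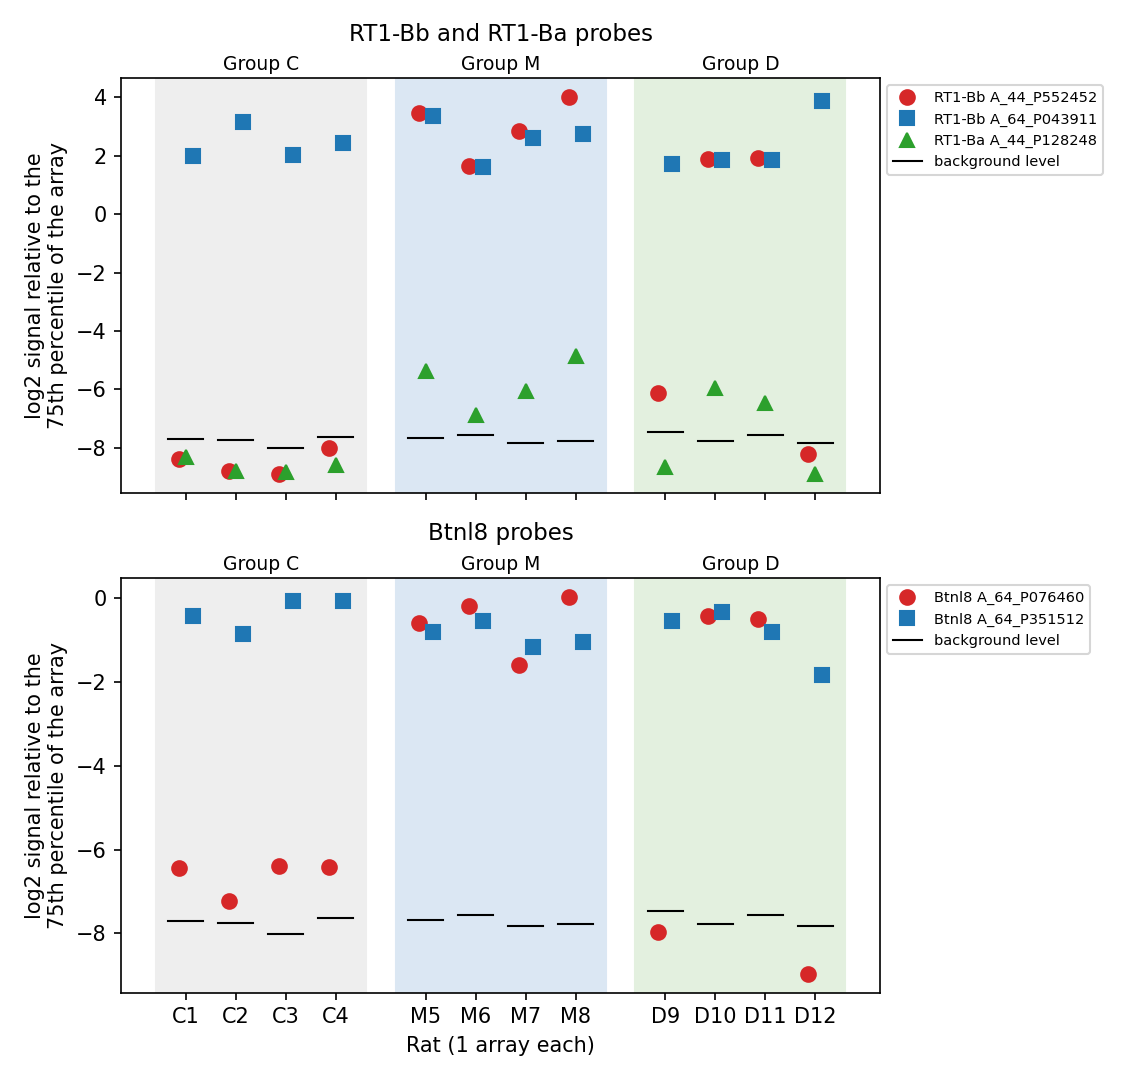
Signal of the RT1-Bb and RT1-Ba probes (top) and of the Btnl8 probes (bottom) in each of the 12 rats, as log2 relative to the 75th percentile of the array; black lines mark the lowest signal of any probe well above background on that array. The distal RT1-Bb probe (red, top) sits between 1.66 and 4.02 in Group M and between -8.89 and -7.99 in Group C, while the other RT1-Bb probe (blue) is bright in every rat.

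The other RT1-Bb probe, A_64_P043911, showed no such split. It gave 2.00, 3.15, 2.02 and 2.45 in Group C, 3.35, 1.63, 2.61 and 2.74 in Group M, and 1.71, 1.85, 1.86 and 3.89 in D9 to D12. D9 to D11 lay below every Group C rat, D12 above all 11 others, and Groups C and M overlapped. The probe was well above background on all 12 arrays. Groups M and C differed by 0.18 ± 0.35 (SE; limma, Benjamini-Hochberg adjusted p = 0.82). Within a rat, the first RT1-Bb probe exceeded the distal one by at least 9.71, 10.89, 10.04 and 10.08 in C1 to C4, where the distal probe had only a bound, whereas in M5, M6, M7, D10 and D11 the difference lay between -0.23 and -0.03 and in M8 it was -1.28. In D9 the difference was 7.82 and in D12 at least 11.73. Such differences include how each probe responds to its target and are no ratio of amounts, so only their shift between rats is described.

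The RT1-Ba probe, for the alpha chain that pairs with RT1-Bb, was split between the rats in a like way but was dim throughout. It gave -8.30, -8.81, -8.82 and -8.59 in Group C, -5.37, -6.89, -6.07 and -4.86 in Group M, and -8.66, -5.96, -6.48 and -8.89 in D9 to D12. Only M5, M7, M8, D10 and D11 were well above background. All Group M values were above all Group C values, although M6, like Group C, D9 and D12, was not well above background. The fitted difference between Groups M and C, which is no bound, was 2.84 ± 0.58 (SE), which did not pass the threshold (limma, adjusted p = 0.0867). It was at least 3.94-fold, with 3 of the 4 Group M arrays well above background. The difference passed the threshold without M6 (3.20, adjusted p = 0.0127) and without D9 (2.84, adjusted p = 0.0444), and the adjusted p reached 0.23 on leaving out other rats.

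The distal Btnl8 probe parted the same rats. It gave -6.44, -7.22, -6.38 and -6.41 in Group C and -0.60, -0.20, -1.60 and 0.03 in Group M. In Group D it gave -7.97 in D9, -0.43 in D10, -0.51 in D11 and -8.96 in D12. D10 and D11 were again within the range of Group M, whereas D9, D12 and C2 were not well above background, and their order carries no meaning. Of the low rats, C1, C3 and C4 were still well above background. With C2 at its measured value, Group C averaged -6.61 ± 0.41 and Group M -0.59 ± 0.72 (SD, n = 4 each), which put the means 6.02 apart.

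The other Btnl8 probe was well above background in every rat, with a narrower range. It gave -0.44, -0.85, -0.07 and -0.07 in Group C, -0.81, -0.55, -1.16 and -1.06 in Group M, and -0.54, -0.34, -0.82 and -1.84 in D9 to D12. The groups overlapped, and the mean was 0.54 lower in Group M than in Group C (-0.90 ± 0.27 against -0.36 ± 0.37, SD, n = 4 each), in the direction opposite to the distal probe. Within a rat the first Btnl8 probe exceeded the distal one by 5.99 in C1, 6.31 in C3 and 6.34 in C4, by at least 6.37 in C2, at least 6.91 in D9 and at least 6 in D12, and lay between -1.09 and 0.44 of it in the other 6 rats. The RT1-Db1 pair of probes served as the contrast, since there the first exceeded the second by 0.41 to 0.96 in all 12 rats.

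Few probes on the array followed the distal RT1-Bb probe. Likeness was measured as Pearson's r over the 12 rats, as a description only, among 22745 probes well above background on at least 3 arrays. It was 0.9 or more for 8 probes, 2 of which were the RT1-Ba probe (0.964) and the distal Btnl8 probe (0.952). The other 6 were Rt1.aa (0.976), LOC683761 (0.951), RT1-CE16 (0.946), RT1-EC2 (0.925), LOC683923 (0.916) and RT1-CE2 (0.913), of which those with RT1 names belong to the rat MHC. None of the 8 was mapped to another chromosome than 20. Rt1.aa, RT1-EC2 and LOC683923 had no position, and RT1-CE16 was 1 of 13 probes assigned to chromosome 20 without a place on it, which the counts by distance leave out. Of the probes placed on chromosome 20, r was 0.9 or more for 4 of 225 probes within 3 Mb of the distal RT1-Bb probe and for 0 of 387 farther away, and 0.8 or more for 10 and 0. These points share the same 12 rats, which fall into separate clusters. For the distal Btnl8 probe, a target added after the values were seen, the named genes most alike were Rt1.aa (0.970), LOC683761 (0.947), RT1-CE2 (0.947), RT1-CE16 (0.937) and RT1-CE14 (0.934).

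**Figure D2:**
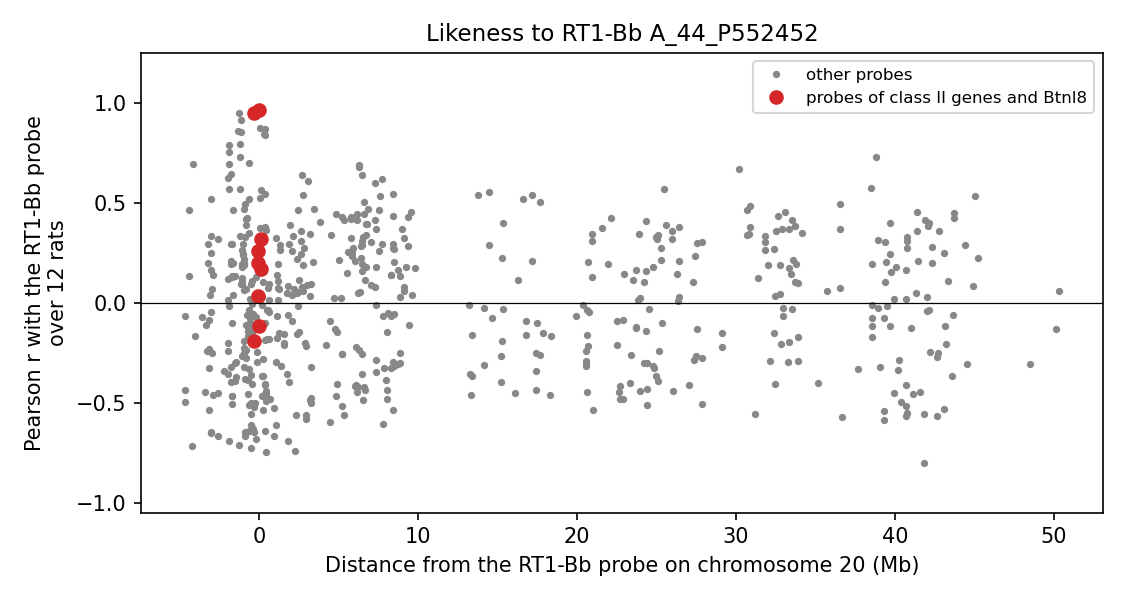
Pearson's r of each probe placed on chromosome 20 with the distal RT1-Bb probe over 12 rats, against its distance from that probe in Mb (rn4); red points are probes of the class II genes and Btnl8. Of these placed probes, those with r of 0.8 or more, 10 in all, lie within 3 Mb, and most probes in the same stretch, other class II probes among them, have r near or below 0.5.

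How base differences between rats under these probes moved with the signals was not tested, since no sequence of these animals was at hand. The split also cannot be told apart from whatever else the rats of a group shared, such as a litter.

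The other class II probes followed a second pattern, one of level and not of presence. Cd74, the invariant chain, gave 3.32, 4.57, 3.46 and 3.60 in Group C, 4.87, 3.27, 4.33 and 4.55 in Group M, and 2.91, 3.48, 3.39 and 5.22 in D9 to D12. C2, M5, M7, M8 and D12 were high, and the other 7 rats were at 3.60 or below, so that each group held both high and low rats. RT1-Da, the classical D alpha chain, gave 1.84, 2.94, 1.97 and 2.27 in Group C, 3.30, 1.60, 2.81 and 2.93 in Group M, and 1.57, 1.81, 1.85 and 3.69 in D9 to D12. The same 5 rats were the highest.

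RT1-Db1, the beta chain of the D pair, gave 1.81, 2.87, 1.79 and 2.12 in Group C, 3.35, 1.76, 2.66 and 3.23 in Group M, and 1.44, 2.14, 2.13 and 3.75 in D9 to D12 with its probe A_64_P130578. Its probe A_64_P134927 gave 1.04, 2.18, 0.91 and 1.39, then 2.83, 1.08, 2.25 and 2.74, then 0.62, 1.18, 1.28 and 3.04 in the same order. Both probes ranked the same 5 rats highest, and the groups overlapped for both.

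The DM chains moved over a smaller range. RT1-DMa gave -0.12, 0.43, -0.30 and -0.05 in Group C, 1.08, -0.18, 0.53 and 0.95 in Group M, and 0.27, 0.23, -0.08 and 1 in D9 to D12. RT1-DMb gave -0.38, 0.55, -0.34 and -0.09 in Group C, 0.94, -0.35, 0.19 and 0.67 in Group M, and -0.36, 0.02, -0.19 and 1.08 in D9 to D12. C2, M5, M7, M8 and D12 were again the highest for both chains.

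Ciita, the transactivator, was far dimmer and showed the widest gap of the 8 probes. It gave -3.46, -1.46, -3.61 and -3.38 in Group C, -1.28, -3.48, -1.87 and -1.27 in Group M, and -3.47, -2.97, -3 and -0.05 in D9 to D12. The fifth and sixth rats in its order were 1.1 apart, with C2, M5, M7, M8 and D12 above the gap. All 8 probes (Cd74, RT1-Da, both RT1-Db1, RT1-DMa, RT1-DMb, Ciita and the first RT1-Bb probe) therefore shared their 5 highest rats. Over the 12 rats r between pairs of these 8 probes ran from 0.81 to 0.989, and between them and the all-or-none set from -0.247 to 0.402. C2 and D12, high for the 8 probes, were low for the all-or-none set, and M6, D10 and D11 were the reverse.

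**Figure D3:**
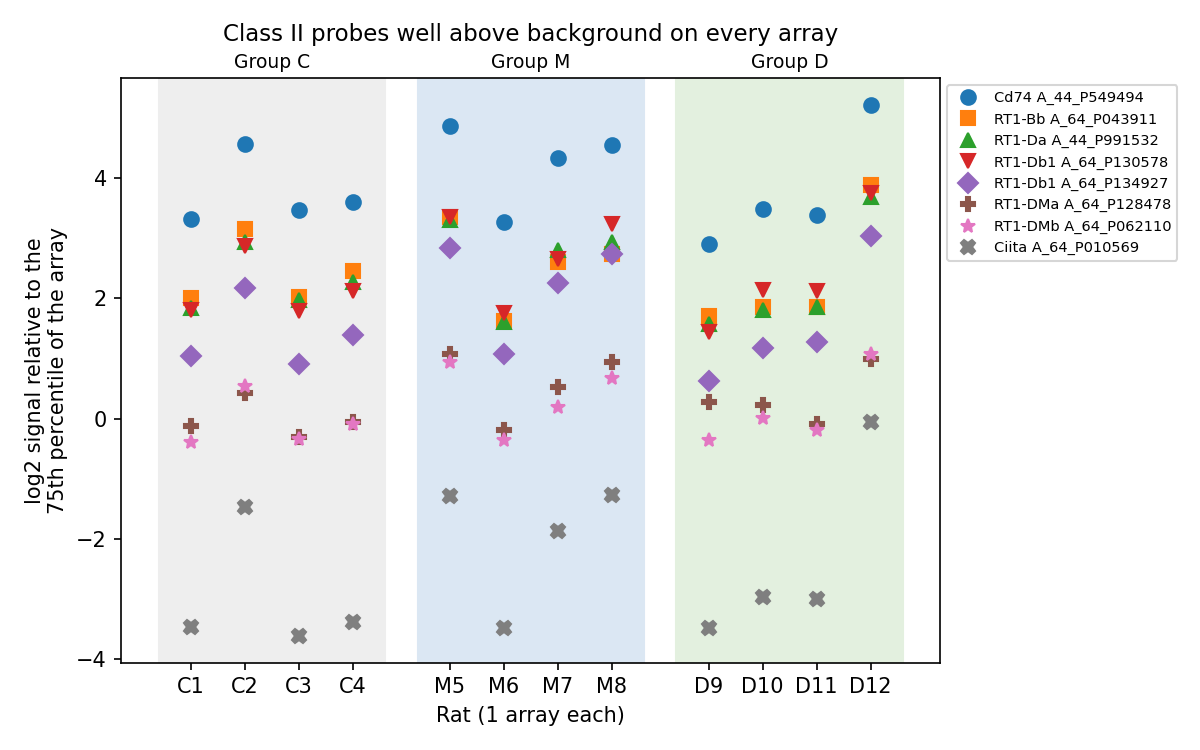
Signal of the 8 probes of 7 class II genes in each rat, as log2 relative to the 75th percentile of the array. For every probe C2, M5, M7, M8 and D12 are the 5 highest rats, with Cd74 between 4.33 and 5.22 in them and between 2.91 and 3.60 in the others.

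Whether NMS altered the class II genes was addressed by Group M against Group C. The median difference over the 8 class II genes, with the brighter probe of each, was 0.56, beside -0.012 over all probes. With the exception of RT1-Ba, the gene differences ran from 0.18 for the first RT1-Bb probe to 1 ± 0.57 (SE) for Ciita (limma, adjusted p = 0.327). Cd74 was 0.52 ± 0.36 higher (adjusted p = 0.435) and RT1-Da 0.40 ± 0.35 higher (adjusted p = 0.534). The RT1-Db1 probes were 0.60 ± 0.37 (adjusted p = 0.362) and 0.84 ± 0.40 (adjusted p = 0.244) higher. RT1-DMa was 0.61 ± 0.27 higher (adjusted p = 0.208) and RT1-DMb 0.43 ± 0.29 higher (adjusted p = 0.411). None of these 8 probes passed the threshold.

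Of the 12 probes, 1 was past the limma threshold (adjusted p no higher than 0.05 and a change of 2-fold or more), where 0.165% of all probes passed in either direction. It was the distal RT1-Bb probe, higher in Group M, whose call was fixed by its choice. By the criterion of the methods, analysis of variance and Tukey test without adjustment plus a 2-fold change, 3 passed, the RT1-Ba probe and the distal RT1-Bb and Btnl8 probes, beside 2.31% of all probes. The same 3 were the probes whose Groups M and C did not overlap with M higher, beside 4.18% of all probes. The distal RT1-Bb and Btnl8 probes were singled out for this very split, and the genes were chosen on these values, so the calls restate the choice and nothing is read from the counts. The limma count was 0 with D12 in the fit, beside 0.0329% of all probes, 0 when C1, C3, C4, M5, M7 or M8 was left out, 3 without D9 and 4 without M6. Leaving out M6 raised the calls over all probes many-fold too, as given at the end, so its count is not read as particular to these genes. Without M6 the second RT1-Db1 probe was 1.22 higher (adjusted p = 0.0306).

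VSL#3 was addressed by Group D (D9 to D11) against Group M. The median over the class II genes was -0.88, beside 0.012 over all probes. Cd74 was lower by 0.99 ± 0.39 (SE; limma, adjusted p = 0.184), RT1-Da by 0.91 ± 0.38 (adjusted p = 0.201), the RT1-Db1 probes by 0.85 ± 0.40 (adjusted p = 0.25) and 1.20 ± 0.43 (adjusted p = 0.158), and Ciita by 1.17 ± 0.62 (adjusted p = 0.301). The first RT1-Bb probe was 0.78 ± 0.38 lower (adjusted p = 0.266), RT1-DMa 0.46 ± 0.29 lower (adjusted p = 0.385), RT1-DMb 0.54 ± 0.31 lower (adjusted p = 0.345) and RT1-Ba, with 3 of 4 Group M and 2 of 3 Group D arrays well above background, 1.24 ± 0.62 lower (adjusted p = 0.277). None of the 12 probes passed in limma, beside 0.128% of all probes, and none by the criterion of the methods, beside 2.66%. Before adjustment, with p no higher than 0.05, 4 of the 12 were lower, beside 10.3% of all probes. They were Cd74, RT1-Da, the second RT1-Db1 probe and the distal RT1-Bb probe, which was singled out for its split. The genes were chosen on these values, so nothing is read from the count.

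These differences depended on single rats. With D12 in the fit, Cd74 differed by -0.50 ± 0.50 (adjusted p = 0.708), RT1-Da by -0.43 (adjusted p = 0.756) and the second RT1-Db1 probe by -0.69 (adjusted p = 0.621). Without M6, the Group M rat with low class II signals, 5 probes passed, among them Cd74 at -1.32 (adjusted p = 0.027) and the second RT1-Db1 probe at -1.58 (adjusted p = 0.0188). The share of all probes that passed without M6 is not given for this comparison. Between Groups M and C it rose many-fold, so the 5 are not read as particular to the class II genes. The distal RT1-Bb and Btnl8 probes differed by -3.76 and -2.38 in Group D, each a mean over rats that were either high or low. Without D9 the distal Btnl8 probe was 0.12 higher in Group D than in Group M, and the distal RT1-Bb probe 1.09 lower.

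Between Group D and Group C the class II genes had a median difference of -0.21, beside -0.008 over all probes. Cd74 differed by -0.48 ± 0.39 (SE; limma, adjusted p = 0.968), RT1-Da by -0.51 ± 0.38 (adjusted p = 0.953) and RT1-Ba by 1.6 ± 0.62 (adjusted p = 0.796). For RT1-Ba Group C had only an approximate bound. Counted from it, Group D was 1.67-fold higher, with 2 of its 3 arrays well above background. No probe of the 12 passed in limma, beside 0.00659% of all probes, and before adjustment 3 had p no higher than 0.05, beside 5.97%. Apart from RT1-Ba these were the distal RT1-Bb and Btnl8 probes, singled out for their split, so nothing is read from the count. The distal RT1-Bb probe alone passed the criterion of the methods, beside 0.369% of all probes, which restates the choice of that probe. Its Group D mean was at least 129-fold higher, over rats that were either high or low. D9 to D11 were above every Group C rat for that probe, beside 3.54% of all probes, and below them for the first RT1-Bb probe, beside 4.02%, with D12 breaking both. With D12 included the distal probe no longer passed the criterion, beside 0.343%. Without D9 the limma count was 2, the distal RT1-Bb and Btnl8 probes, which again restates their choice. Since the 3 comparisons share groups, they are not independent of each other.

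**Figure D4:**
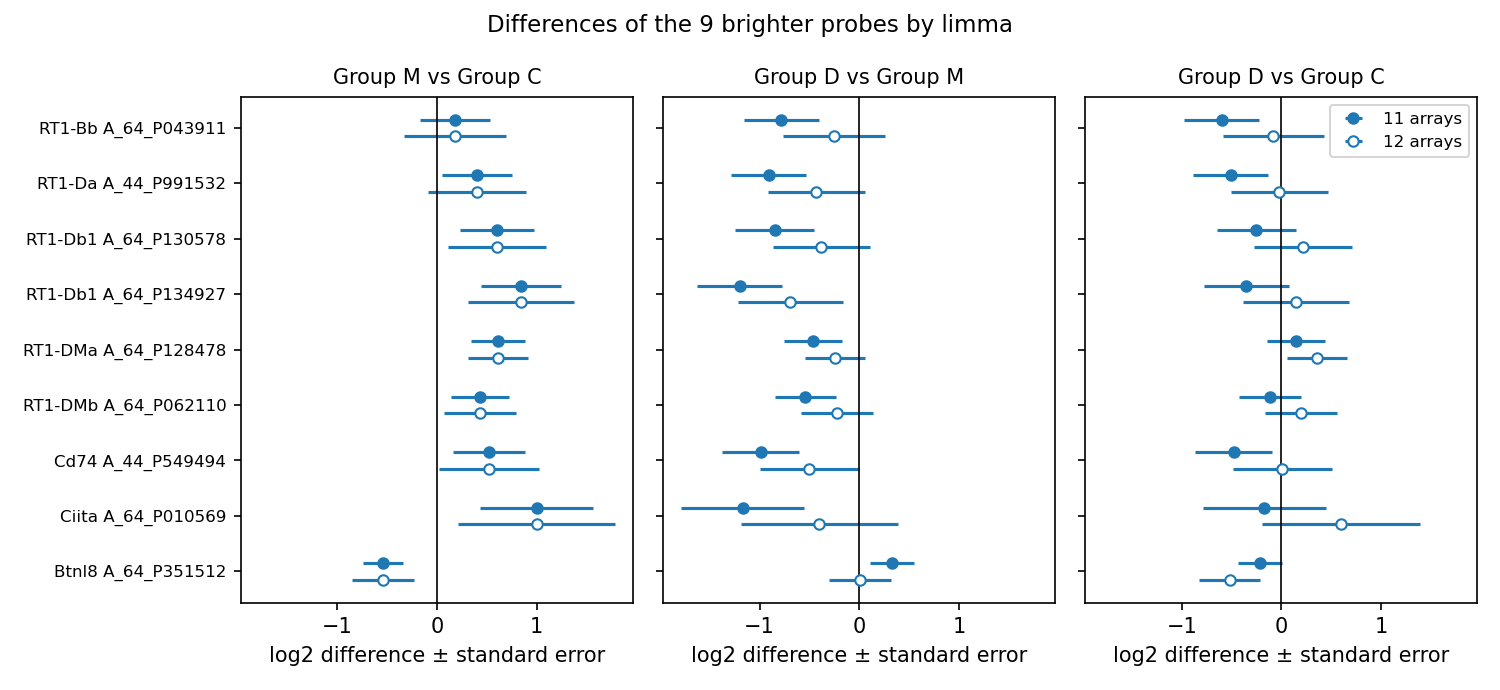
Difference in log2 signal between groups for the brighter probe of each gene other than RT1-Ba and for both RT1-Db1 probes, with its standard error, from 11 arrays (filled) and from 12 arrays with D12 (open). With D12 the Cd74 difference between Groups D and M moves from -0.99 to -0.50.

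Markers of lymphoid cells moved with the class II genes from rat to rat. The signals of 5 B cell markers, summed relative to the 75th percentile, were 0.135, 2.84, 0.184 and 0.186 in Group C, 4.3, 0.182, 2.24 and 2.93 in Group M, and 0.0829, 0.353, 0.227 and 6.35 in D9 to D12. C2, M5, M7, M8 and D12 were the highest, the same rats as for Cd74 and the other 7 probes of that pattern. Of these markers Cd79b was well above background on all 12 arrays, Ms4a1 and Blk on 8, Cr2 on 7 and Cd22 on 5. All 5 had higher means in Group M than in Group C, with a median of 2.16, and none passed in limma (lowest adjusted p = 0.301). With D9 to D11 all 5 were lower in Group D than in Group M, with a median of -3.32 that became -1.77 with D12.

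The same 5 rats also had the highest summed signals of 7 T cell markers (0.652 to 4.99 in Group C, 0.651 to 4.37 in Group M and 0.643 to 9.35 in Group D), of 7 dendritic cell markers, of 8 macrophage markers and of 4 lymphoid follicle markers (0.56 to 14 in Group C, 0.628 to 14.5 in Group M and 0.525 to 18.6 in Group D), the last including Cxcl13, the chemokine that draws B cells to follicles. Summed macrophage markers varied less, from 17.7 to 29.1. For epithelial markers, between 133 and 219, the highest were C3, D9, D10, M6 and M7, and for smooth muscle markers, between 150 and 227, they were C4, D9, D11, M5 and M8, sets that shared 1 and 2 rats with those 5. The part of lymphoid tissue in the class II differences was not tested.

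**Figure D5:**
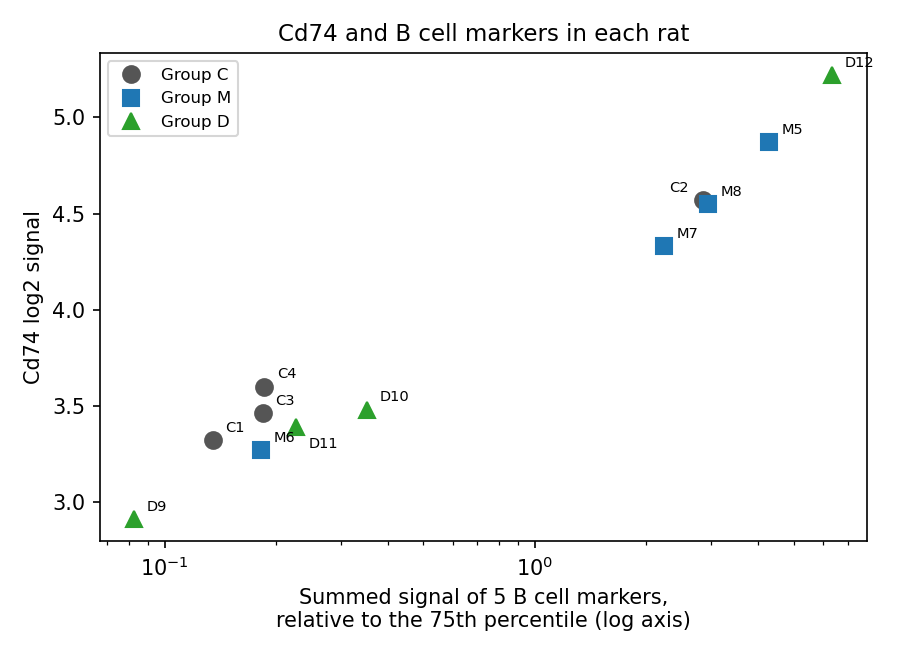
Cd74 signal (log2 relative to the 75th percentile of the array) against the summed signal of 5 B cell markers on a log axis, with 1 point per rat. C2, M5, M7, M8 and D12 lie at summed signals of 2.24 or more with Cd74 at 4.33 or more, and the other 7 rats at 0.353 or less with Cd74 at 3.60 or less.

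The probes most like Cd74 in pattern were TC588776 (r = 0.998 over 12 rats), mapped beside it, then Il16 (0.995), a cytokine of lymphocytes, Sh3kbp1 (0.994), LOC684352 (0.994) and Sept1 (0.994). In all, 737 of the probes compared had r of 0.9 or more with Cd74, 690 of them mapped to chromosomes other than 20, where the distal RT1-Bb probe had 8 and none. The brighter Btnl8 probe was most like Cox7b (0.978), Cox6c1 (0.974) and Cox6c (0.973), subunits of cytochrome c oxidase, ENSRNOT00000051411 (0.968) and Hgfac (0.966).

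The rest of the pathway was described with lists of genes measured by 1 probe each, in Group M against Group C and without D12. Of 12 other class II and peptide loading genes, 9 had higher and 3 lower means, with a median of 0.42, and none passed in limma. RT1-DOb, the beta chain of the DO modulator of DM, was 1.81 ± 0.79 (SE) higher (adjusted p = 0.206), and the lysosomal protease Ctsl1 was 1.05 ± 0.40 higher (adjusted p = 0.16). Ctss, the protease that trims the invariant chain, was 0.47 ± 0.14 lower (adjusted p = 0.113), and March8, a ligase that removes class II from the surface, was 0.29 ± 0.13 lower (adjusted p = 0.218).

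The factors that act with Ciita at class II promoters were nearly level. Of 7, 2 had higher and 5 lower means, with a median of -0.14. Nfyb was 0.40 ± 0.12 higher (limma, adjusted p = 0.12) and Nfya 0.21 ± 0.13 higher (adjusted p = 0.37), whereas Rfxank was 0.36 ± 0.14 lower (adjusted p = 0.17) and Rfx5 0.33 ± 0.19 lower (adjusted p = 0.34). Of 15 genes of the interferon gamma pathway, the main inducer of Ciita, 9 were higher and 6 lower, with a median of 0.21. Ifng itself was well above background on none of the 12 arrays. Socs1 was 1.05 ± 0.43 higher (adjusted p = 0.186) and Gbp4 0.60 ± 0.29 higher (adjusted p = 0.255), while Irf2 was 0.60 ± 0.17 lower (adjusted p = 0.11) and Cxcl11 0.59 ± 0.38 lower (adjusted p = 0.393).

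Of 13 receptors and co-stimulatory genes that meet class II at the T cell contact, 11 had higher and 2 lower means, with a median of 0.24. The T cell co-stimulator Icos was 1.27 ± 0.57 higher (limma, adjusted p = 0.223) and Pdcd1lg2, a ligand of the inhibitory receptor Pdcd1, 1.12 ± 0.63 higher (adjusted p = 0.321), while Cd86 was 0.32 ± 0.19 lower (adjusted p = 0.35) and Cd4, the receptor of class II, 0.24 ± 0.16 lower (adjusted p = 0.393). No gene of these 4 lists passed in limma or by the criterion of the methods in this comparison.

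Btnl8 was also set beside its family. Of 5 measured butyrophilin genes, 2 had higher and 3 lower means in Group M than in Group C, with a median of -0.58. Btnl5 was 1.85 ± 0.45 lower (limma, adjusted p = 0.0988) and Btnl7 1.75 ± 0.46 lower (adjusted p = 0.105), and both passed the criterion of the methods, beside 0.936% of all probes that passed it downwards. Btn2a2 was 0.16 ± 0.27 higher (adjusted p = 0.776), and Btn1a1, 0.13 ± 0.17 higher (adjusted p = 0.702), was near background on all 12 arrays. A list of 12 probes other than Btnl8 with butyrophilin in their name or description was made after the values were seen. It includes the probes of the 5 genes above. Of the 12, 10 were lower, with RGD1624210 at -2.22 ± 0.44 (adjusted p = 0.0848). Among these 10, ENSRNOT00000048642 differed by only -0.02 and was well above background on no array. The brighter Btnl8 probe was likewise lower in Group M, and the distal one higher.

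Because 8 of the class II probes moved together, the promoters were read for the letters of the known class II boxes. RefSeq promoters of build GRCr8, from 250 bases before to 50 after the gene start, were at hand for 7 of the 9 genes, all but RT1-DMb and Ciita. The Y box was searched as TGATTGG and the X box as ACNGATG on both strands, and the X letters were loosened after these promoters had been read. Both boxes stood in RT1-Bb, RT1-Da, RT1-Db1 and RT1-DMa, with the X box upstream, and are in capitals here. RT1-Ba held the Y letters but not these X letters, and Cd74 and Btnl8 held neither. A box spelled otherwise is missed by this search, so a missing match does not show that a promoter lacks the box.

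RT1-Bb (chr20:4604167-4604216, minus strand): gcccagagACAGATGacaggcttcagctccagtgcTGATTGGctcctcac
RT1-Da (chr20:4515328-4515378, plus strand): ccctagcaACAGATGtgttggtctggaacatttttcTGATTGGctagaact
RT1-Db1 (chr20:4560230-4560279, minus strand): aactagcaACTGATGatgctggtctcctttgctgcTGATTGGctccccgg
RT1-DMa (chr20:4712387-4712437, minus strand): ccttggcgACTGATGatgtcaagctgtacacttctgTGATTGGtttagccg
RT1-Ba (chr20:4576973-4577026, plus strand): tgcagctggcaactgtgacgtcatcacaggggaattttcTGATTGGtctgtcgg

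The boxes were 20 bases apart in RT1-Bb and RT1-Db1 and 21 in RT1-Da and RT1-DMa. Of 33469 promoters of the same length, 7.063% held the Y letters and 10.165% the X letters on either strand, and 11 held X before Y within 5 to 40 bases on the strand of the gene. Of those 11, 6 belonged to RT1-Bb, RT1-Da, RT1-Db1, RT1-DMa, RT1-DOb and RT1-Db2. Because the X letters were loosened after the promoters of the examined genes had been read, finding those genes here restates that choice. Nothing is read from the count.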

How the data were processed

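Colon RNA of 12 rats was labelled with Cy3 and hybridised to Agilent Whole Rat Genome arrays, 1 array per rat. The deposited scanner files hold the processed spot intensity, which the authors obtained with the Agilent Feature Extraction software (background-subtracted), and the deposited value table, used only as an alternative, holds their processed log2 values. Here the log2 of the processed intensity was set relative to that array's 75th percentile. Outlier spots were left out and spots of a probe averaged. limma 3.58.1 in R 4.3.3 was fitted to the 3 groups over 30367 probes on 11 arrays (D12 left out), with Benjamini-Hochberg adjustment, and a probe counted as called with adjusted p no higher than 0.05 plus a 2-fold change. The criterion of the methods (analysis of variance and Tukey test) was run on the same values. On simulated data with 200 of 30348 probes changed by 2 on the log2 scale, limma recovered 177 for Group M against Group C with 6 false calls. It recovered 173 for Group D against Group M and 168 for Group D against Group C. The simulated noise was independent between probes, and the change was larger than those of the 8 class II probes that moved together. The recovery of differences like theirs was therefore not measured. The number of arrays limits the precision. The genes and lists were chosen with earlier results of these data known, and 1 marker of the B cell list is not reported here. Every probe of the 9 genes is named. Of each pathway list the 2 most increased and the 2 most decreased genes between Groups M and C are named (no gene of a list was called), and for likeness the 5 named genes with the highest r.

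The alternatives tried were all 12 arrays, normexp background correction with an offset of 50, quantile and median scaling, the authors' table, outlier spots kept, a filter on dim probes, a replicate block, array weights, the 2 compared groups alone and leaving out each rat.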

Additional observations from a re-analysis of the deposited data

Results flagged for a closer look

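Within groups of 4 rats, the gap of the highest or lowest rat to its neighbour was divided by the range of the group. It exceeded Dixon's critical value in 5 of 36 cases, the 12 probes in 3 groups. Chance gives about 5% of independent groups, but many of these probes moved together and some were singled out for their split. The count is therefore not compared with that share. In Group D, rat D12 stood above the other 3 for the first RT1-Bb probe (ratio 0.933), RT1-Da (0.868) and Ciita (0.854). In Group C, rat C2 stood above the others for Ciita (0.894). For the distal Btnl8 probe C2 was the lowest (0.932), but it was not well above background there, so its distance from the other 3 has no meaning. C2 and D12 also had the highest B cell marker signals of their groups.

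D12, which the group comparisons did not use, exceeded every Group C rat at 8 class II probes. Its log2 signals relative to the 75th percentile were 5.22 for Cd74, 3.89 for the first RT1-Bb probe, 3.69 for RT1-Da, 3.75 and 3.04 for the RT1-Db1 probes, 1 for RT1-DMa, 1.08 for RT1-DMb and -0.05 for Ciita. In Cd74 the highest Group C rat had 4.57 and the highest Group M rat 4.87.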

How the results depend on the processing

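For Group M against Group C, the number of the 12 probes called, 1 in limma on 11 arrays, was 3 by the criterion of the methods, 0 with all 12 arrays, 2 with normexp background correction, 6 with array weights, 2 with the 2 compared groups alone and 0 to 4 on leaving out each rat. For Group D against Group M the count of 0 became 6 with array weights and 0 to 5 on leaving out each rat, and for Group D against Group C the count of 0 became 1 by the criterion of the methods and 0 to 2 on leaving out each rat. By the criterion of the methods the counts on leaving out each rat were 3 to 4 (M against C, 3 with all), 0 to 5 (D against M, 0 with all) and 1 to 3 (D against C, 1 with all, 0 with 12 arrays). The median difference over the class II genes ran from 0.36 to 0.86, from -1.22 to -0.67 and from -0.37 to 0.04 on leaving out each rat. Over all probes, array weights moved the calls between Groups M and C from 50 to 2073, leaving out M6 to 1772 and the criterion of the methods to 701. The counts of the 12 probes under these settings are therefore not read as particular to the class II genes. Normexp moved the fitted distal RT1-Bb difference, which is no bound, from 11.51 to 7.55. Correlations between rats with the same replicate number were scattered (r from -0.719 to 0.584, over 0.1 in 3 of 12 pairs). So few pairs cannot settle whether the numbers pair the samples, which were treated as unpaired. With the replicate block 0 of the 12 probes were called between Groups M and C. The cause of these shifts was not tested.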
